A study of Mus musculus with 6 samples.

Results

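The 8 receptors examined here mediate the action of hormones on the mammary gland, and they were measured in isolated mammary cells of pubertal *fat-1* and wild-type (WT) mice. They were chosen by name, as the rows of the count table whose gene symbol is *Esr1*, *Esr2*, *Pgr*, *Nr3c1*, *Vdr*, *Prlr*, *Ghr* or *Insr*, together with the sum of all rows that carry the same assembled locus number. All 8 symbols were found, and their loci hold 14 of the 61880 rows of the table, which fall into 53912 loci. RNA was sequenced from 6 isolates, 3 of each genotype, and each isolate is a pool of cells from the inguinal glands of several female mice. All mice were of the FVB/NJ strain, aged 6 to 8 weeks, and were kept for life on the parental modified AIN93G diet, in which safflower oil supplied 10% fat by weight and 22% of the energy. The *fat-1* mice carry a gene of the roundworm *Caenorhabditis elegans* for a desaturase that turns *n*-6 into *n*-3 polyunsaturated fatty acids, and WT mice on this diet lack it. The transgene is active throughout the body, so that an effect arising in the mammary cells and an effect arising elsewhere cannot be told apart in this model. Nothing in the sources says that the pools of a genotype shared animals, and *p*-values here rest on the spread between pools, not between single mice. The tests of counts also draw on the spread of the other rows or loci tested. The tests of receptor order and of relations to markers take the 6 isolates of both genotypes together.

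Steroid hormones and vitamin D act on receptors inside the cell that bind DNA directly, whereas prolactin and growth hormone act on receptors of the cytokine class at the cell surface that signal through JAK2 and STAT5. Insulin acts on a receptor tyrosine kinase. In the pubertal gland, growth hormone acts largely on the stroma and estrogen acts on a subset of luminal cells that carry both the estrogen and the progesterone receptor. Progesterone and prolactin later drive side branching and the formation of alveoli, and glucocorticoids and insulin are needed for full secretory differentiation.

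In these isolates, *Pgr* and *Nr3c1* had the highest levels per exon length, *Esr1* had a low level and *Esr2* was at or under the detection limit. The levels of *Prlr*, *Pgr*, *Vdr* and *Esr1* spanned 2.90-fold to 7.03-fold from the lowest to the highest isolate, while those of *Nr3c1*, *Ghr* and *Insr* spanned 1.28-fold to 1.51-fold. No receptor differed between genotypes in its summed counts by edgeR's quasi-likelihood test. For *Nr3c1*, the counts were divided between 2 rows of the table in a different proportion in each genotype.

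The deposited estimated counts summed to between 204539059 and 232148824 per isolate. Counts scaled to equal totals (CPM) are relative to totals normalized by TMM, and a count of 3, used as the limit that an absence of counts allows, was worth 0.0132 to 0.0146 CPM on this scale. This limit covers counting error only. Of the rows, 30683 passed the filter on low counts and were tested, and of the locus sums 24061. Fold changes are given as log2 of *fat-1* relative to WT, so that a negative value means a lower level in *fat-1*. The direction rests on the genotype in the sample labels alone, since no row of the table is named for the transgene and the labels could not be checked against it. The paper reports *Per1*, described below, as lower in *fat-1*, whereas by these labels its symbol row was higher. The direction of every genotype difference given here is therefore in doubt. The cells were labelled epithelial, and all 8 luminal markers and all 8 basal markers were present in every isolate. Fibroblast markers (8 of 8) and immune markers (10 of 10) were present too. The most abundant marker of each list was *Cldn4* for luminal cells (237 to 1155 CPM), *Foxa1* for luminal hormone-sensing cells (13.2 to 67.6 CPM), *Lcn2* for luminal progenitors (203 to 587 CPM), *Myh11* for basal cells (48.3 to 152 CPM), *Dcn* for fibroblasts (898 to 2080 CPM), *Cd68* for immune cells (668 to 860 CPM), *Pecam1* for endothelium (59.7 to 119 CPM), *Fabp4* for adipocytes (83.2 to 126 CPM) and *Tnnt3* for skeletal muscle (0.877 to 1.98 CPM). *Adipoq*, which defines adipocytes, had at most 0.500 CPM. Between genotypes, the mean levels of 9 marker lists gave an exact permutation *p* of 0.1 to 1, and the lowest value, for endothelium, is the smallest possible with 3 against 3 isolates.

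**Figure D1:**
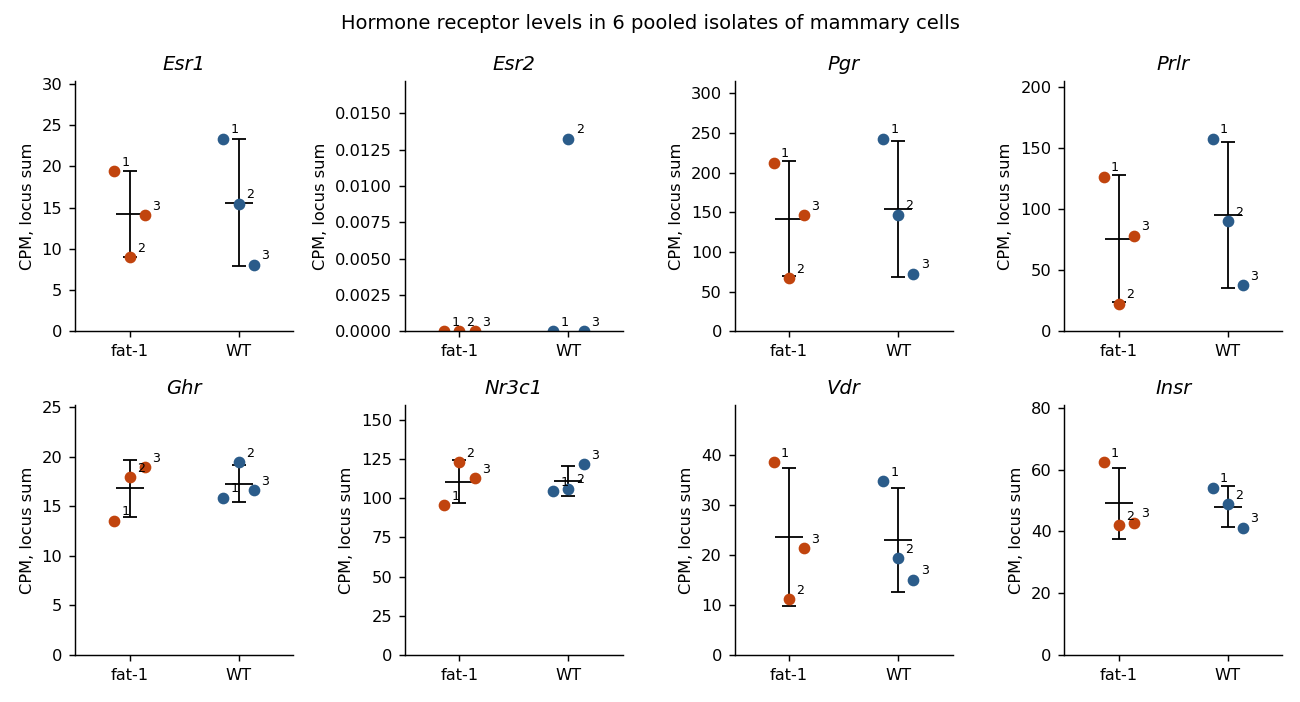
Summed counts of each receptor locus in CPM, with one point for each isolate numbered by replicate, and the mean and SD of 3 isolates as a line with bars (none for *Esr2*, whose counts were nearly all 0). Isolate 1 of both genotypes is high and *fat-1* isolate 2 and WT isolate 3 are low for *Esr1*, *Pgr*, *Prlr* and *Vdr*, while *Nr3c1* lies between 95.7 and 123 CPM throughout.

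*Esr1* encodes estrogen receptor alpha, the receptor required for the growth of the pubertal ducts. The gene (chromosome 10, 4611593 to 5005614, plus strand, all positions in GRCm38) had all the counts of its locus in the row with the symbol. The level was 19.4, 9.00 and 14.1 CPM in *fat-1* isolates 1 to 3 and 23.3, 15.4 and 8.05 CPM in WT isolates 1 to 3. Both genotypes had a high, a middle and a low isolate, and the groups overlapped. The means were 14.2 ± 5.21 CPM in *fat-1* and 15.6 ± 7.65 CPM in WT (SD, n = 3 each), a log2 fold change of -0.14 (SE 0.43, 95% interval -1.19 to 0.91, edgeR quasi-likelihood adjusted *p* = 1.00). The interval still holds changes of more than 0.9 on the log2 scale in either direction. In bulk isolates such as these, fewer cells of a type and less RNA per cell cannot be told apart.

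*Esr2*, the gene of estrogen receptor beta (chromosome 12, 76120419 to 76177259, minus strand), had 0 counts in all 3 *fat-1* isolates. In WT it had 0, 3 and 0 counts. Both groups were at or under the limit of 3 counts, so no fold change is given, and the gene did not pass the filter for testing. In the isolates with 0 counts this depth allows at most 0.0146 CPM, and the 3 counts of WT isolate 2 came to 0.0132 CPM, while *Esr1* had at least 8.05 CPM in every one.

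*Pgr* encodes the progesterone receptor, itself a classical target of estrogen receptor alpha. Its locus (chromosome 9, 8899833 to 8968611, plus strand) summed to 213, 67.2 and 146 CPM in *fat-1* and 243, 147 and 72.8 CPM in WT. The isolates that were high and low for *Esr1* were again high and low, and the groups overlapped. The mean was 142 ± 72.8 CPM in *fat-1* and 154 ± 85.3 CPM in WT (SD, n = 3 each). The log2 fold change was -0.12 (SE 0.54, interval -1.42 to 1.19, edgeR quasi-likelihood adjusted *p* = 1.00). The row with the symbol held 54.6%, 59.5% and 56.2% of the locus counts in *fat-1* and 52.8%, 61.8% and 56.0% in WT, so that the division between rows overlapped between genotypes (exact permutation *p* = 1). The other counts were mostly in a row without a symbol. The third row is *Gm16485*, annotated on the same strand 3180 bases beyond the end of *Pgr*, with 2461, 143 and 93 counts in *fat-1* and 2429, 157 and 869 in WT.

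*Vdr*, the vitamin D receptor, pairs with retinoid X receptors on DNA and restrains ductal growth in the mouse gland. Its locus (chromosome 15, 97854425 to 97910630, minus strand) consisted of the symbol row alone. The level was 38.4, 11.2 and 21.3 CPM in *fat-1* and 34.7, 19.2 and 15.02 CPM in WT. Isolate 1 was the highest of each genotype, and the groups overlapped. The means of 23.6 ± 13.8 and 23.0 ± 10.4 CPM (SD, n = 3 each) gave a log2 fold change of 0.04 (SE 0.50, interval -1.17 to 1.25, edgeR quasi-likelihood adjusted *p* = 1.00), and this small value changed sign in several of the alternative fits.

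The upstream sequence is shown for 4 receptors whose levels moved together across isolates, *Pgr*, *Vdr*, *Esr1* and *Prlr*, so that a reader can see what precedes their start sites. *Insr* also moved with them (r = 0.795 to 0.890, n = 6 isolates), but no upstream sequence was available for it. For *Esr1* and *Prlr*, the start shown is the only one of each gene that held any of the motifs searched. RefSeq promoter windows on GRCm38.p6 matched 6 of the 8 receptors at 10 start sites (not *Nr3c1* and *Insr*), and the 250 bases before the start were searched on both strands. The estrogen response half-site was searched as GGTCA, which 35.2% of the 32851 windows of all genes held. The half-site of the glucocorticoid and progesterone receptors was searched as AGAACA, held by 16.1% of them. A GC box was taken as GGGCGG, held by 32.7%, and a TATA box was taken as TATAAA, held by 12.4%. The forkhead motif TGTTTAC was held by 3.17% of all windows. The STAT motif TTCNNNGAA was held by 7.02%. No 2 of the matches shown overlap. Each sequence runs 5′ to 3′ in the sense of the gene, and capitals mark the matches on either strand. The windows are, in this order, chr9:8899583-8899832 (plus strand), chr15:97908297-97908546 (minus), chr10:4709908-4710157 (plus) and chr15:10223656-10223905 (plus).
Pgr start 1: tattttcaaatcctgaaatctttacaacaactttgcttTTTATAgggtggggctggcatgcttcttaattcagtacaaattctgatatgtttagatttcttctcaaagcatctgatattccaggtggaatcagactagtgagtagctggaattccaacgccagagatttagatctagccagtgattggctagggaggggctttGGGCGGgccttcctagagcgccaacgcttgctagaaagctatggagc
Vdr start 1: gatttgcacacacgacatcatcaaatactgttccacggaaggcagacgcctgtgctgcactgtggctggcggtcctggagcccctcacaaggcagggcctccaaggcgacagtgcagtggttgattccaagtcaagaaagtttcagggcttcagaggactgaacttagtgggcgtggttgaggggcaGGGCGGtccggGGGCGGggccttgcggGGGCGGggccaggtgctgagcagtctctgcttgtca
Esr1 start 2: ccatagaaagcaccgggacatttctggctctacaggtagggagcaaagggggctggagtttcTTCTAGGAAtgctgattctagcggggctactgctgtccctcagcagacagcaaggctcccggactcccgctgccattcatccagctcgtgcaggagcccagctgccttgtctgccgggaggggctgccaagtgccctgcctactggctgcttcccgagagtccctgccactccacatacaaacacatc
Prlr start 2: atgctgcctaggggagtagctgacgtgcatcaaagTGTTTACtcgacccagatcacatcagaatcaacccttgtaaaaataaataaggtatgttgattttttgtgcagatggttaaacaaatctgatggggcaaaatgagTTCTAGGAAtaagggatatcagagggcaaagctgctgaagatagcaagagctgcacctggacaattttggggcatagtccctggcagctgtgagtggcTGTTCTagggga
The *Pgr* window held a GC box that begins 47 bases before the start and a TATA box on the other strand at 212 bases. The *Vdr* window held 3 GC boxes, at 63, 52 and 36 bases before the start. In *Esr1* the second start had a STAT motif at 188 bases, and the first start had none of the 6 motifs. In *Prlr* the second start had a forkhead motif at 215 bases, a STAT motif at 110 bases and the half-site AGAACA, on the other strand, at 12 bases, and the other starts had none of the 6 motifs. GGTCA was found in the window of *Esr2* (at 238 and 75 bases) and in no other receptor window. *Ghr* had 2 GC boxes before its first start, at 174 and 93 bases, and a TATA box at 188 bases before its second. A match of letters is not a measured binding site. No motif was common to the 4 windows.

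*Nr3c1* encodes the glucocorticoid receptor and lies on chromosome 18 (39410545 to 39519421, minus strand). Its locus summed to 95.7, 123 and 113 CPM in *fat-1* and 105, 106 and 122 CPM in WT, with 110 ± 13.8 and 111 ± 9.52 CPM as the means (SD, n = 3 each). These groups overlapped over a narrow range, and the log2 fold change was -0.00 (SE 0.12, interval -0.30 to 0.29, edgeR quasi-likelihood adjusted *p* = 1.00). *Nr3c1* was the most even of the receptors across isolates.

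The 2 rows of the *Nr3c1* locus did not share this evenness. The row with the symbol had 18898, 23139 and 21947 counts in *fat-1* and 15349, 7238 and 12035 in WT, so that every *fat-1* isolate was higher than every WT isolate. The row without a symbol had 1284, 3228 and 1528 counts in *fat-1* and 7018, 16799 and 12994 in WT, and every *fat-1* isolate was lower. The symbol row therefore held 93.6%, 87.8% and 93.5% of the locus in *fat-1* and 68.6%, 30.1% and 48.1% in WT, a mean difference of 42.7 percentage points (exact permutation *p* = 0.1, the smallest that 3 against 3 isolates allow). WT isolate 2 had the lowest share, and without it the difference was 33.3 points. Among 4042 loci of at least 1 CPM that have 1 symbol row and other rows, 8.36% had shares that did not overlap between genotypes. Their median absolute difference was 4.23 points, and 14 loci (0.346%), *Nr3c1* itself among them, differed by at least as much as *Nr3c1*.

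By edgeR's quasi-likelihood test, the log2 fold change of the *Nr3c1* symbol row was 0.90 (SE 0.30, interval 0.16 to 1.65, adjusted *p* = 1.00). For the row without a symbol it was -2.58 (SE 0.48, interval -3.75 to -1.40, adjusted *p* = 1.00), and both rows passed the unadjusted threshold of 0.05. With the same Benjamini–Hochberg adjustment, the row without a symbol passed by DESeq2 (adjusted *p* = 0.000264) and by edgeR's exact test (adjusted *p* = 0.00415), and the symbol row passed by neither (0.953 and 1). Over the alternatives, the log2 fold change of the symbol row stayed between 0.64 and 1.16, and it no longer passed the unadjusted threshold without *fat-1* isolate 2 (log2 fold change 0.85), *fat-1* isolate 3 (0.87) or WT isolate 3 (0.96). The locus sum carried the difference of neither row. The row without a symbol has no coordinates in the table, and whether it stands for another transcript of *Nr3c1* or for a different placing of the same reads was not tested.

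**Figure D2:**
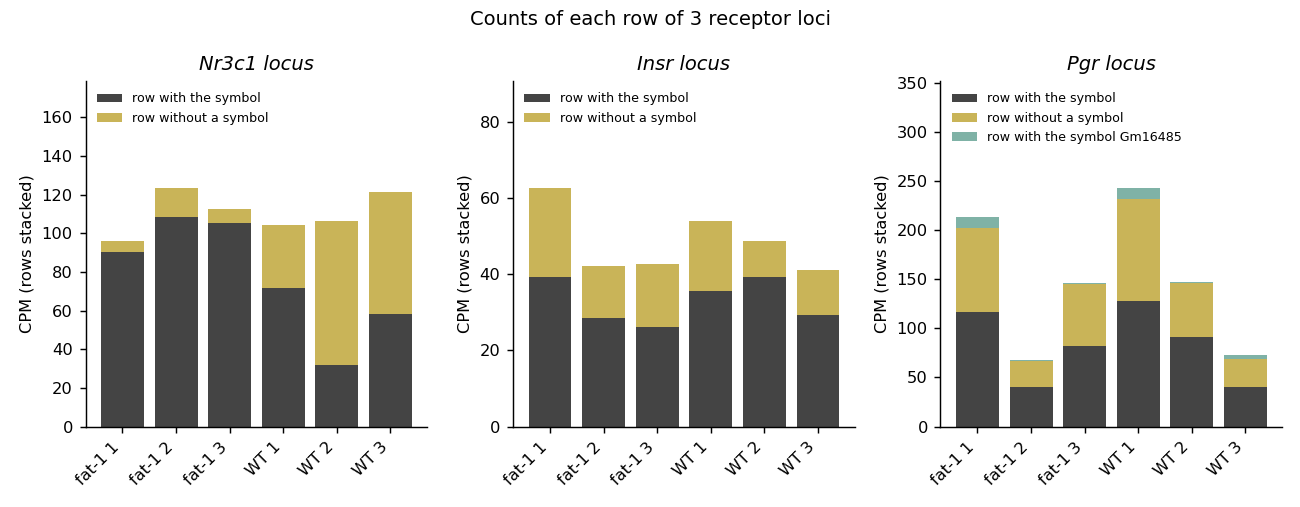
Stacked bars of the CPM of each row of the *Nr3c1*, *Insr* and *Pgr* loci in each isolate, with dark for the symbol row and lighter colours for the other rows. The *Nr3c1* bars have nearly the same height in all 6 isolates, while the symbol row fills 87.8% to 93.6% of them in *fat-1* and 30.1% to 68.6% in WT.

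*Prlr* encodes the prolactin receptor, which acts through STAT5 in alveolar development. Its locus (chromosome 15, 10177238 to 10349180, plus strand) summed to 127, 22.4 and 78.2 CPM in *fat-1* and 157, 89.9 and 37.8 CPM in WT. It was the most uneven receptor, 7.03-fold between the highest isolate (WT 1) and the lowest (*fat-1* 2), and the groups overlapped. The means were 75.7 ± 52.1 CPM in *fat-1* and 95.02 ± 59.98 CPM in WT (SD, n = 3 each), with a log2 fold change of -0.33 (SE 0.71, interval -2.04 to 1.39, edgeR quasi-likelihood adjusted *p* = 1.00). The symbol row held 99.8% of the locus in each genotype. The other rows are *Agxt2*, 9352 bases away, with 4 to 60 counts, and *Gm21973*, which shares 203 exonic bases with *Prlr* on the same strand and had at most 1 count, so reads from the shared bases cannot be assigned with certainty.

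*Ghr* encodes the growth hormone receptor (chromosome 15, 3317760 to 3583492, minus strand). The level was 13.5, 17.9 and 18.9 CPM in *fat-1* and 15.9, 19.4 and 16.6 CPM in WT. Isolate 1, the highest for *Esr1*, *Pgr*, *Prlr* and *Vdr*, was here the lowest of each genotype, and the groups overlapped. The means were 16.8 ± 2.85 and 17.3 ± 1.88 CPM (SD, n = 3 each), with a log2 fold change of -0.04 (SE 0.16, interval -0.44 to 0.35, edgeR quasi-likelihood adjusted *p* = 1.00).

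*Insr*, the insulin receptor (chromosome 8, 3122061 to 3279617, minus strand), summed to 62.3, 42.1 and 42.8 CPM in *fat-1* and 54.2, 48.7 and 41.2 CPM in WT. Isolate 1 was again the highest of each genotype, and the groups overlapped. The means were 49.1 ± 11.5 and 48.0 ± 6.54 CPM (SD, n = 3 each), a log2 fold change of 0.03 (SE 0.19, interval -0.43 to 0.49, edgeR quasi-likelihood adjusted *p* = 1.00). The symbol row held 62.6%, 67.8% and 61.0% of the locus in *fat-1* and 65.9%, 80.5% and 71.2% in WT (exact permutation *p* = 0.2). Of the 4042 comparable loci, *Insr* itself among them, 27.5% differed by at least as much. The log2 fold change of the symbol row was -0.15 (edgeR quasi-likelihood adjusted *p* = 1.00), and that of the row without a symbol was 0.43 (SE 0.32), and neither passed the unadjusted threshold.

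Counted together, 0 of the 7 receptor loci tested passed the threshold of 0.05 on the adjusted *p* from edgeR's quasi-likelihood test, against 0% of all 24061 loci. At the unadjusted threshold of 0.05 the count was also 0 of 7, against 1.14% of loci, and the same held by DESeq2 (8 loci called in all after adjustment) and by edgeR's exact test (6 loci). Of the 12 rows tested in the receptor loci, 0 passed after adjustment by the quasi-likelihood test (0% of all 30683 rows). Both rows of *Nr3c1*, and no other of the 12, passed at the unadjusted threshold, which 2.21% of all rows passed. By DESeq2 and by the exact test, 1 of the 12 passed after adjustment, the *Nr3c1* row without a symbol, against 0.303% and 0.104% of all rows. The intervals of the locus sums were widest for *Prlr*, *Pgr*, *Vdr* and *Esr1*, the receptors that varied most within each genotype.

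**Figure D3:**
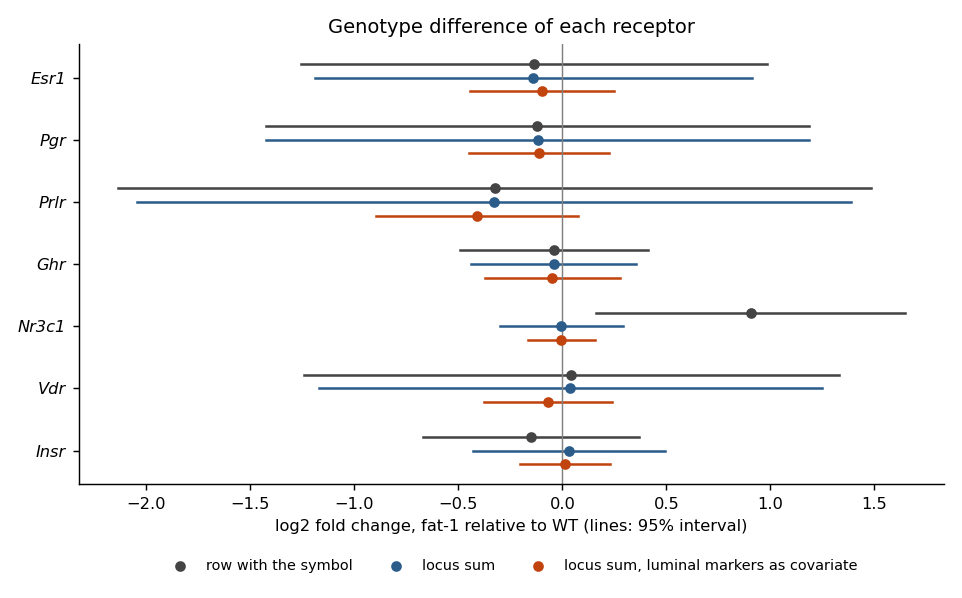
Log2 fold change of each tested receptor, *fat-1* relative to WT, with 95% intervals as lines, for the symbol row, the locus sum, and the locus sum with the mean level of luminal markers as a covariate. The interval leaves out 0 for the *Nr3c1* symbol row alone (0.16 to 1.65). The covariate narrows the interval of every receptor shown, and most for *Esr1*, *Pgr*, *Prlr* and *Vdr*.

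The order of the receptors was compared as CPM per kb of exon, the locus sum divided by the total length of annotated exons. The mean over 6 isolates was 17.3 ± 8.33 for *Pgr*, 14.4 ± 1.38 for *Nr3c1*, 5.56 ± 3.35 for *Prlr*, 4.12 ± 1.93 for *Vdr*, 3.53 ± 0.609 for *Insr*, 1.88 ± 0.241 for *Ghr* and 1.09 ± 0.432 for *Esr1* (SD, n = 6 each). *Nr3c1* was above *Prlr*, *Insr* above *Ghr*, *Ghr* above *Esr1* and *Esr1* above *Esr2* in 6 of 6 isolates. For each of these 4 steps the exact permutation *p* was 0.031, the smallest that 6 isolates allow, and 0.0547 after adjustment over 7 neighbouring pairs, so none passed the adjusted threshold. *Pgr* was above *Nr3c1* in 4 of 6 isolates (exact permutation *p* = 0.688), *Prlr* above *Vdr* in 4 of 6 (exact permutation *p* = 0.219) and *Vdr* above *Insr* in 3 of 6 (exact permutation *p* = 0.625). With the symbol rows in place of the locus sums, 2 of the 7 steps held in all isolates. The symbol rows of *Pgr* and *Nr3c1* had means of 83.1 and 77.6 CPM, over 8546 and 7684 exon bases, which puts *Nr3c1* slightly above *Pgr*. The *Pgr* locus sum also includes *Gm16485*, a separate gene.

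**Figure D4:**
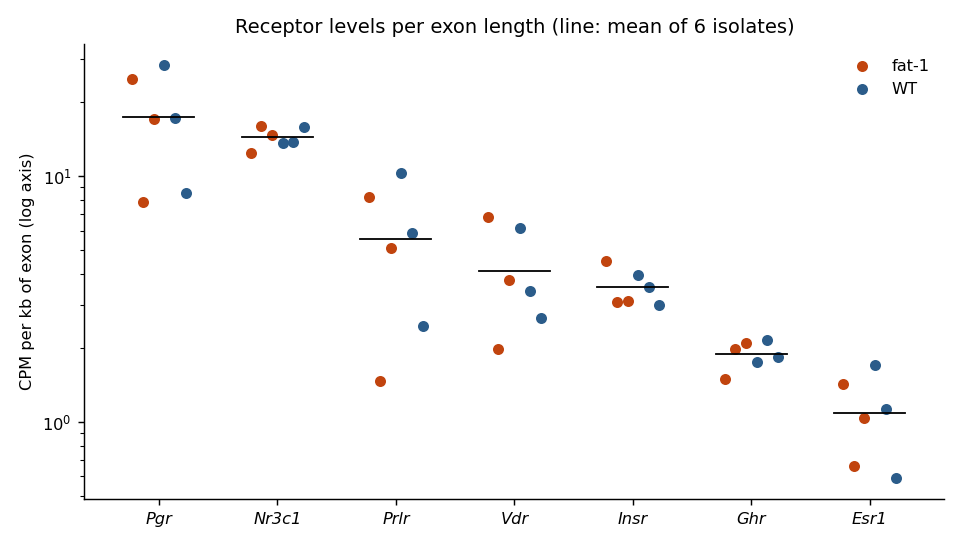
Level of each receptor locus other than *Esr2* per isolate in CPM per kb of exon on a log axis, with lines at the mean of 6 isolates. *Pgr* (mean 17.3) and *Nr3c1* (mean 14.4) lead and *Esr1* (mean 1.09) is the lowest of the 7 receptors tested, and *Nr3c1*, *Insr* and *Ghr* form tighter columns than *Prlr*, *Pgr*, *Vdr* and *Esr1*.

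Ratios between receptors were taken from the levels per exon length. The *Pgr* sum used here also holds *Gm16485* and a row without a symbol, and the symbol row held 52.8% to 61.8% of it. The exon length of *Esr1* was 13661 bases against 6339 in its longest transcript, and that of *Pgr* 8546 against 6889. Ratios with these 2 genes therefore depend on the rows and lengths chosen. *Pgr* was 17.5, 11.9 and 16.6 times *Esr1* in *fat-1* and 16.6, 15.2 and 14.5 times in WT (exact permutation *p* = 0.9). The ratio of *Prlr* to *Pgr* was 0.332, 0.186 and 0.298 in *fat-1* and 0.361, 0.341 and 0.289 in WT (exact permutation *p* = 0.3). *Fat-1* isolate 2 had the lowest of both ratios. The groups overlapped in each case, also for *Vdr* to *Esr1* (2.9998 to 4.78, exact permutation *p* = 0.8) and *Nr3c1* to *Pgr* (0.479 to 2.03, exact permutation *p* = 0.7).

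The coefficient of variation over the 6 isolates was 60.2% for *Prlr*, 48.1% for *Pgr*, 46.8% for *Vdr*, 39.6% for *Esr1*, 17.3% for *Insr*, 12.8% for *Ghr* and 9.57% for *Nr3c1*. The median of the 14659 loci of at least 1 CPM was 13.3%, and 89.4% to 97.5% of them varied less than *Esr1*, *Vdr*, *Pgr* and *Prlr*. Across isolates, Pearson's r of log2(CPM + 1) was 0.987 between *Esr1* and *Pgr*, 0.982 between *Pgr* and *Prlr* and 0.9498 between *Pgr* and *Vdr*, and -0.907 between *Pgr* and *Nr3c1* (n = 6 isolates). These values are a description, since all genes share the same 6 libraries and totals.

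The receptors were then set against the mean log2(CPM + 1) of the luminal, fibroblast, adipocyte and immune markers, in 28 relations over the 6 isolates. The luminal mean was 8.60, 6.51 and 7.43 in *fat-1* and 8.32, 7.56 and 6.59 in WT, and did not separate the genotypes (exact permutation *p* = 1). The summed luminal markers ranged from 1064 to 4692 CPM in *fat-1* and from 1112 to 3548 CPM in WT. *Vdr* followed the luminal mean with r = 0.976 (exact permutation *p* = 0.00833, or 0.0333 adjusted over the 28). Its Spearman's rho was 0.943 (exact permutation *p* = 0.0167, or 0.0519 adjusted), and r came to 0.953 when the 2 isolates farthest from the median were left out. For *Pgr*, r was 0.971 (exact permutation *p* = 0.0181, or 0.0460 adjusted) and 0.994 without the 2 farthest, and rho was the same as for *Vdr*.

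*Esr1* had r = 0.957 to the luminal mean (exact permutation *p* = 0.0181, or 0.0460 adjusted) and 0.999 without the 2 farthest isolates, with a rho of 0.886 (exact permutation *p* = 0.0333, or 0.0778 adjusted). *Prlr* had r = 0.943 (exact permutation *p* = 0.0125, or 0.0389 adjusted) and 0.999 without them, with a rho of 0.943 (exact permutation *p* = 0.0167, or 0.0519 adjusted). In *Insr*, r was 0.935 (exact permutation *p* = 0.00278, or 0.0233 adjusted) and 0.918 without them, with a rho equal to that of *Prlr*. *Nr3c1* ran the other way, with r = -0.967 (exact permutation *p* = 0.00139, or 0.0194 adjusted) and -0.930 without them, and a rho of -1 (exact permutation *p* = 0.00278, or 0.0389 adjusted). The slopes differed widely, from 1.16 for *Prlr*, 0.864 for *Pgr*, 0.745 for *Vdr* and 0.626 for *Esr1* to 0.255 for *Insr* and -0.155 for *Nr3c1*, in log2 units of the receptor for each log2 unit of the markers.

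Immune markers summed to 1505 to 2107 CPM in *fat-1* and 1393 to 2202 CPM in WT, with none of the 10 at 0. Against their mean, the same 6 receptors had r of the opposite sign, from -0.907 for *Insr* to -0.982 for *Esr1* and 0.947 for *Nr3c1*, with exact permutation *p* from 0.00139 to 0.0222 and adjusted *p* from 0.0194 to 0.0479. Spearman's rho ran from -0.829 for *Vdr* to -1 for *Esr1* and was 0.886 for *Nr3c1*, with exact permutation *p* from 0.00278 to 0.0583 and adjusted *p* from 0.0389 to 0.126. Without the 2 isolates farthest from the median, r was still between -0.828 and -0.939, and 0.819 for *Nr3c1*. *Cd68*, the most abundant marker of the list, ran against the rest, highest in *fat-1* isolate 1 and lowest in *fat-1* isolate 2. It made up a large part of the immune sums, while the other myeloid markers were scarce (*Itgam* 3.01 to 5.50 CPM, *Csf1r* 4.89 to 7.76 CPM). Whether counts of other genes enter its locus was not tested.

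*Ghr* followed neither luminal (r = -0.586, exact permutation *p* = 0.215, or 0.355 adjusted) nor immune markers (r = 0.447, exact permutation *p* = 0.372, or 0.474 adjusted) past the threshold, and its rho was -0.486 and 0.371 (exact permutation *p* = 0.356 and 0.497). With the fibroblast markers, which summed to 1648 to 6391 CPM in *fat-1* and 3499 to 5938 CPM in WT with none of the 8 at 0, *Ghr* had r = 0.945 (exact permutation *p* = 0.00972, or 0.0340 adjusted) with a rho of 0.886 (exact permutation *p* = 0.0333, or 0.0778 adjusted). Without *fat-1* isolate 1 and WT isolate 1 its r was 0.626, so that the relation rests in part on those isolates. The adipocyte mean ran only from 1.78 to 1.95 over the isolates, which left little room for a relation to it. In all, 13 of the 28 relations passed the adjusted threshold, none of them with adipocyte markers. With library totals in place of TMM, 5 did (*Esr1*, *Pgr* and *Prlr* with immune markers, *Vdr* and *Insr* with luminal markers), although no r of the 13 then moved by more than 0.05, and 14 passed after the genotype means were subtracted. Luminal and immune levels ran in opposite directions across these isolates. Basal markers, which were not set against the receptors, summed to 620.4, 164 and 322 CPM in *fat-1* and 495, 270.1 and 157 CPM in WT. Isolate 1 was thus the highest and *fat-1* isolate 2 and WT isolate 3 the lowest of their genotype in basal markers as in luminal ones. The same held for the means of the luminal progenitor and hormone-sensing lists, but not for each marker in them. *Tnfsf11*, a hormone-sensing marker, ran the other way (0.408, 1.60 and 1.22 CPM in *fat-1*, 0.505, 0.622 and 2.26 CPM in WT). *Cited1* was highest in *fat-1* isolate 3 and WT isolate 2, and *Areg* was highest in WT isolate 2. Which of these cell types the receptors follow cannot be told apart.

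**Figure D5:**
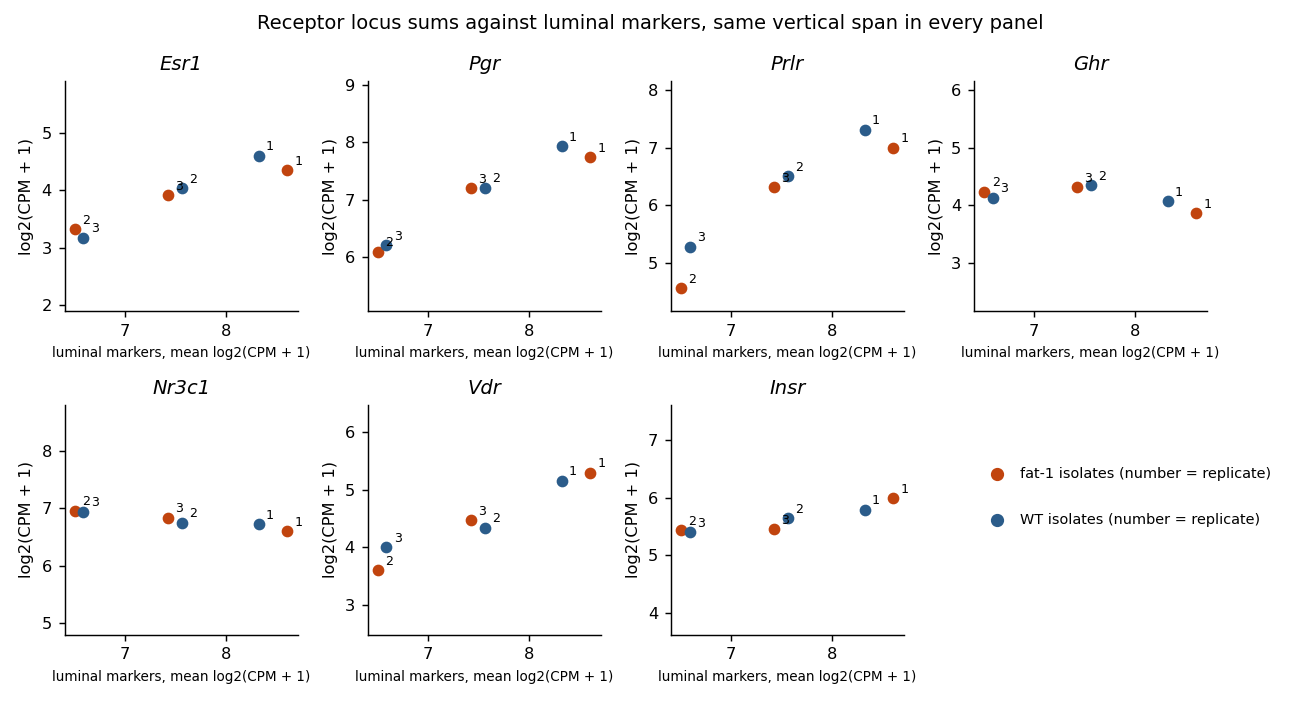
Log2(CPM + 1) of each receptor locus against the mean log2(CPM + 1) of 8 luminal markers, with one point for each isolate numbered by replicate and the same vertical span in every panel. *Prlr*, *Pgr*, *Vdr* and *Esr1* climb from *fat-1* isolate 2 and WT isolate 3 to isolate 1 of both genotypes, *Insr* climbs with a slope of 0.255, and *Nr3c1* declines with a slope of -0.155.

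Since the isolates differed in luminal markers within each genotype, the locus fit was repeated with the luminal mean as a covariate, an alternative chosen after the data were seen. The SE of the log2 fold change went from 0.43 to 0.14 for *Esr1*, from 0.54 to 0.14 for *Pgr*, from 0.50 to 0.13 for *Vdr* and from 0.71 to 0.20 for *Prlr*. It fell as well for *Insr* (0.19 to 0.09), *Nr3c1* (0.12 to 0.07) and *Ghr* (0.16 to 0.13). The log2 fold changes at equal luminal level were -0.10 (interval -0.45 to 0.25) for *Esr1*, -0.11 (-0.45 to 0.22) for *Pgr*, -0.07 (-0.38 to 0.24) for *Vdr* and -0.41 (-0.90 to 0.08) for *Prlr*. *Prlr* had the smallest *p* of the receptors in this fit (edgeR quasi-likelihood adjusted *p* = 1.00), and it did not pass the unadjusted threshold either. For *Nr3c1* the interval was -0.17 to 0.16, for *Insr* -0.20 to 0.23 and for *Ghr* -0.37 to 0.28.

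Among loci with a single named gene and at least 1 CPM, those most like each receptor over the 6 isolates, by Pearson's r of log2(CPM + 1), were listed with no test. *Esr1* was followed most closely by *Sgms2*, *Fbxo10* and *Insig2* (r = 0.996 to 0.998), *Pgr* by *Kdelr1*, *Tfap2c* and *Ephb4* (0.998 to 1.000) and *Prlr* by *Mtch1*, *Fbxo45* and *Alg14* (0.997 to 1.000). *Tfap2c*, which encodes a transcription factor of luminal cells, had 15.5, 3.82 and 9.48 CPM in *fat-1* and 18.1, 9.47 and 3.97 CPM in WT. *Vdr* was followed by *Pgap3*, *Coasy* and *Btbd19* (0.998 for each) and *Insr* by *Tmtc1*, *Pik3c2a* and *Hspb1* (0.998 to 0.999). *Ghr* was followed by *Twist1*, *Dbx2* and *Ccl7* (0.995 to 0.996), and *Twist1*, a mesenchymal transcription factor, had 6.35, 13.6 and 15.2 CPM in *fat-1* and 10.1, 15.5 and 11.02 CPM in WT. *Nr3c1* was followed by *Clec4a1*, a receptor gene of myeloid cells, *Plcl2* and *Slc25a45* (0.994 to 0.999). *Clec4a1* was scarce, at 0.763 to 1.99 CPM. Likeness of this degree was common, since 824 of 10967 loci had r of at least 0.95 to *Pgr*, 840 to *Vdr*, 341 to *Nr3c1* and 237 to *Ghr*.

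The genes around the receptors were taken from 8 lists and tested as locus sums with edgeR's quasi-likelihood test. Of 24 other hormone receptors tested, 0 passed in either direction at the unadjusted threshold, and their median log2 fold change was 0.00, the same as for all loci. *Pgrmc1*, a membrane-associated progesterone-binding protein and the most abundant of them, had 558, 369 and 456 CPM in *fat-1* and 484, 497 and 394 CPM in WT, with a log2 fold change of 0.01 (SE 0.17). *Lepr*, the leptin receptor, had the smallest *p* of that list, with 2.83, 6.33 and 3.37 CPM in *fat-1* and 1.90, 2.04 and 4.06 CPM in WT (log2 fold change 0.65, SE 0.42, edgeR adjusted *p* = 1.00). The gonadotropin receptor genes *Fshr* and *Lhcgr* did not pass the filter, with at most 5 counts in an isolate.

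Of 17 hormones and hormone-converting enzymes tested, 0 passed. The most abundant, *Hsd17b12*, had 122 to 152 CPM in *fat-1* and 134 to 180 CPM in WT (log2 fold change -0.15, SE 0.14). *Cyp24a1* had the smallest *p* of this list. It is also in the list of vitamin D receptor targets, and its values are given there. *Prl*, *Ins1* and *Ins2*, the genes of prolactin and insulin themselves, had 0 counts in every isolate, and *Cyp19a1*, the aromatase gene, had 2 counts in 1 isolate. *Sts* was not analysed here. Steroid receptor chaperones (14 tested) had 0 passing, a median log2 fold change of -0.02 and a median absolute one of 0.04, against 0.11 for all loci. *Hsp90ab1*, the chaperone that holds unbound steroid receptors, had a log2 fold change of -0.01 (SE 0.08) and *St13* one of -0.06 (SE 0.09).

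In the JAK2–STAT5 pathway, 0 of 15 loci passed, with a median log2 fold change of 0.05. *Stat3* was the most abundant (482 to 580 CPM, log2 fold change 0.04, SE 0.09), and *Socs2*, a feedback inhibitor of growth hormone and prolactin signalling, had the smallest *p* (log2 fold change -0.12, SE 0.11, edgeR adjusted *p* = 1.00). In insulin signalling 0 of 20 passed, with a median of 0.00. The kinase gene *Akt1* had a log2 fold change of 0.02 (SE 0.12) and *Pik3r1*, a regulatory subunit of phosphoinositide 3-kinase, one of -0.15 (SE 0.09, edgeR adjusted *p* = 1.00). The symbol row of *Pdpk1*, named here after its values were seen, passed the unadjusted threshold (37.0, 21.9 and 8.57 CPM in *fat-1* against 58.1, 55.4 and 53.9 CPM in WT, log2 fold change -1.31, edgeR adjusted *p* = 1.00), whereas its locus sum, which also holds *Kctd5*, did not (0.00, SE 0.08). It was the 1 symbol row of the 20 tested in this list to pass, against 2.21% of all rows.

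Among estrogen and progesterone receptor targets, 0 of 13 loci passed. Their median log2 fold change was -0.10, against 0.00 for all loci, and 11 were negative, as were 49.4% of all loci. *Areg*, *Wnt4* and *Tnfsf11* of this list are also hormone-sensing markers used here, so the list is not separate from the cell types of the isolates. *Xbp1*, the most abundant by the locus sum, had 162, 113 and 150 CPM in *fat-1* and 186, 166 and 120 CPM in WT (log2 fold change -0.15, SE 0.20). *Myb* had the smallest *p* (log2 fold change -0.31, SE 0.23, edgeR adjusted *p* = 1.00). Of the glucocorticoid receptor targets 0 of 12 passed, with a median of -0.01 and 6 in each direction. *Nfkbia*, an inhibitor of NF-κB, had a log2 fold change of 0.05 (SE 0.10) and *Pdk4*, which restrains pyruvate oxidation, one of -0.58 (SE 0.31, edgeR adjusted *p* = 1.00). *Per1*, a clock gene that glucocorticoids induce, resembled *Nr3c1* in its rows and is named after its values were seen. The paper reports it as significantly lower in *fat-1* by DESeq2, the opposite of the direction by the labels used here. The values given next are from a different test, edgeR's quasi-likelihood test, by which no row of the table passed after adjustment. The symbol row of *Per1* had 92.9, 75.9 and 99.6 CPM in *fat-1* and 56.2, 54.0 and 55.6 CPM in WT (log2 fold change 0.70, SE 0.14, edgeR adjusted *p* = 1.00), whereas for the locus sum the log2 fold change was 0.09 (SE 0.10, edgeR adjusted *p* = 1.00). Of the 12 symbol rows tested in this list, 1 passed the unadjusted threshold, against 2.21% of all rows.

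Vitamin D receptor targets had a median log2 fold change of -0.45, against 0.00 for all loci, and 7 of 8 were negative, against 49.4% of all loci. Of the 8, 1 passed the unadjusted threshold, which 1.14% of all loci passed, and 0 the adjusted one. The 1 locus was *Spp1*, the osteopontin gene, with 6.07, 3.93 and 4.72 CPM in *fat-1* and 6.92, 6.82 and 6.69 CPM in WT (log2 fold change -0.47, SE 0.18, edgeR adjusted *p* = 1.00), and its locus also holds *Gm42793*. *Cyp24a1*, which degrades active vitamin D and is a direct target of its receptor, had 0.313, 0.289 and 0.370 CPM in *fat-1* and 0.668, 0.411 and 0.443 CPM in WT (log2 fold change -0.65, SE 0.27, interval -1.30 to 0.01, edgeR adjusted *p* = 1.00). *Cd14*, the most abundant target, is also one of the luminal progenitor markers used here. It overlapped between genotypes, with 48.4, 22.1 and 36.1 CPM in *fat-1* and 58.2, 55.5 and 29.3 CPM in WT (log2 fold change -0.42, SE 0.36). The others were scarce, and *S100g* and *Klk6* had at most 0.207 CPM in any isolate.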

How the data were processed

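RNA was measured in 3 *fat-1* and 3 WT pooled isolates, and genotype and replicate number were taken from the sample labels. The authors aligned paired-end reads to GRCm38 by HISAT2, built transcripts from the alignments by StringTie, and deposited the resulting estimated counts as whole numbers that were not normalized. The annotation, the StringTie version, the use of strand and the step from coverage to counts are not given in the sources used here, so reads of overlapping genes may have been split either way. The total per isolate was 204539059 to 232148824, and columns without a sample numbered 0.

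Rows of a locus were added together. Rows and loci kept by filterByExpr were tested with edgeR 4.0.16 under R 4.3.3 (quasi-likelihood, newer fit, legacy=FALSE, with the older fit as an alternative, TMM, genotype as the only term, Benjamini–Hochberg adjustment, threshold 0.05). An SE is the log2 fold change over the square root of F. DESeq2 1.42.0, the edgeR exact test, other filters, scalings and designs, and leaving out each isolate were alternatives. The fits were tested on simulated data. Exact permutation tests were two-sided, on log2(CPM + 1) for correlations, on log2 of CPM per kb + 0.01 (sign flips) for the order, and on percentages and ratios as they are. Exons and coordinates are from GENCODE vM21 (GRCm38), promoter windows from RefSeq (GRCm38.p6). Python 3.11.15, pandas 2.3.3, scipy 1.17.1 and matplotlib 3.10.9 were used.

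Named are the 8 receptors, of each pathway list the locus of smallest unadjusted *p* and that of highest mean CPM, the 3 loci most like each receptor, and the most abundant marker of each list. The receptors, lists and markers were chosen with earlier results of these data known.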

Additional observations from a re-analysis of the deposited data

How the results depend on the processing

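Of the 7 receptor loci, none passed the threshold under any alternative. Leaving out 1 isolate at a time turned the sign of every locus value. The ranges of the log2 fold change were, for the locus sum and in parentheses the symbol row, -0.44 to 0.27 for *Esr1* (-0.45 to 0.27), -0.52 to 0.37 for *Pgr* (-0.50 to 0.27), -0.91 to 0.25 for *Prlr* (-0.92 to 0.25), -0.14 to 0.10 for *Ghr* (-0.13 to 0.10), -0.50 to 0.46 for *Vdr* (-0.50 to 0.47). They were -0.088 to 0.099 for the *Nr3c1* locus and -0.17 to 0.13 for the *Insr* locus, and -0.46 to 0.49 for the *Pgr* row without a symbol. The *Nr3c1* locus value, near 0 throughout, was 0.000349 by DESeq2 and 0.000346 with RLE size factors. With the luminal covariate, chosen after the data were seen, *Vdr* was -0.066 as row and -0.068 as locus. The labels do not say whether replicate numbers mark pairs of isolates. Deviations from the genotype mean correlated at 0.80, -0.16 and 0.13 between same-numbered isolates, and at 0.79 between *fat-1* isolate 2 and WT isolate 3. With 3 isolates per genotype these values cannot decide it. With a replicate block, *Vdr* was -0.040 as row and -0.041 as locus, the *Nr3c1* rows 0.98 and -2.61, the *Insr* row without a symbol 0.45 and past the unadjusted threshold, and 784 rows and 376 loci passed the unadjusted threshold, 0 after adjustment.

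After adjustment, DESeq2 called 93 rows and 8 loci and the exact test 32 and 6. Leaving out 1 isolate gave 0 to 2 rows and 0 to 1 loci, and at the unadjusted threshold 635 to 986 rows and 204 to 542 loci. Without the filter on low counts these were 1136 and 579, and with the luminal covariate 1081 and 621. Steps of the order held in all isolates numbered 4, or 2 with symbol rows. Relations to markers past the threshold numbered 13, or 5 with library totals, and there the values of r moved little. The cause was not tested where none is named. The *Nr3c1* share difference was 33.3 to 52.5 points, that of *Pgr* -2.12 to 2.37 and that of *Insr* -12.1 to -4.76. Depth limits *Esr2*, at 0 to 3 counts an isolate.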
